A study of Danio rerio with 37 samples.

Results

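Cas7-11 is a CRISPR protein that cuts RNA matched by its guide. RNA-seq libraries of zebrafish embryos labelled with Cas7-11 fell apart by replicate number, in the knockdown and in the control arm. The libraries were chosen by their titles: Cas7-11 with 10 pg of GFP, in a knockdown arm and a control arm of 4 libraries each, which is 8 of the 37 libraries of the series. Replicates 1 and 2 of both arms (4 libraries) are compared here with replicates 3 and 4 of both arms (4 libraries). All were whole embryos collected at 6 hours post fertilization. The labels do not state what the control embryos received beyond the name Cas7-11 control, the strain, the number of embryos pooled per library, or whether a replicate number marks a clutch or a day. The split was made because these same counts had shown the libraries apart, so the set differences of genes at 10 pg are descriptions and carry no test. Tests are given for GFP and for reads outside the gene counts, which the split did not use directly, and for knockdown responses. The responses come from the same gene counts as the split. Tests of them within a set or between the sets are therefore not free of the choice of sets.

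Embryos of this age are at the onset of gastrulation. The mRNAs that the mother loaded into the egg are being cleared, the zygotic genome has become active, and the germ layers are being specified. Nodal ligands such as that encoded by ndr1, with their maternal partner encoded by gdf3, induce mesendoderm, and retinoic acid and Wnt signals pattern the posterior. The yolk syncytial layer, an extraembryonic layer that borders the yolk, begins to express genes for lipid export and plasma proteins.

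Reads assigned to genes numbered 17.4 to 23.0 (in units of 1e6) per library, and markers of early gastrulae were present in all 8 libraries. The mesoderm factor tbxta stood at 344 to 571 TPM (transcript abundance relative to the whole library), the organizer gene chrd at 192 to 262 TPM and the enveloping-layer keratin krt4 at 1625 to 2809 TPM, whereas the muscle gene mylpfa was at 0 to 0.1 TPM. Unmapped reads made up 7.26% and 4.63% of the reads in the knockdown and 6.00% and 6.13% in the controls of replicates 1 and 2, against 6.42% and 6.87% in the knockdown and 8.79% and 8.57% in the controls of replicates 3 and 4. For the 4 kinds of read outside the gene counts, a two-sided exact permutation test within arms gave p = 0.111 to 0.222 between the sets (adjusted p = 0.222, the smallest p possible being 0.0556). The part of such differences in the results was not tested.

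Groups follow the sample titles, which give GFP, although the design text of the series is about miR-430. GFP was at 35.0 and 43.0 TPM in the knockdown and 224 and 279 TPM in the controls of replicates 1 and 2. In replicates 3 and 4 it was at 59.7 and 70.4 TPM in the knockdown and 305 and 253 TPM in the controls. The arms did not overlap in either set, and the knockdown was 84.5% below the controls in replicates 1 and 2 and 76.7% below them in replicates 3 and 4. With exchanges within sets, the difference of the arms was -2.37 on the log2(TPM + 1) scale (exact permutation p = 0.0556, the smallest possible). Between the sets it was -0.44 (exact permutation p = 0.111).

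Of 15897 genes tested, 634 were at least 2-fold higher in replicates 1 and 2 than in replicates 3 and 4 with no overlap of the sets in either arm, which is 3.99% of genes, and 209 were lower by the same rule, which is 1.31%. Without the fold limit the sets did not overlap in either arm for 2584 genes that were higher (16.3%) and 2169 that were lower (13.6%). Levels are CPM, read counts scaled to library size by TMM, and a fold change is the log2 ratio of replicates 1 and 2 over replicates 3 and 4, with arm as a covariate. The SE after ± was worked back from the edgeR fit, as the size of the log2 difference over the root of its F statistic. For genes chosen by their set difference this SE is a description and no test. The genes nearest the 2-fold limit were phospho1 at 1.0012 inside it, and cyth1b at 0.9999 and smad3a at -0.9998 outside it. The count of genes that were lower was 338, 536, 393 and 369 without knockdown replicate 1, 2, 3 and 4 in turn. It was 178 to 209 without any 1 control library. With a library left out, no overlap is asked of fewer libraries in its arm, which makes the rule easier to meet. A rise alone therefore does not show that the count depends on that library.

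**Figure D1:**
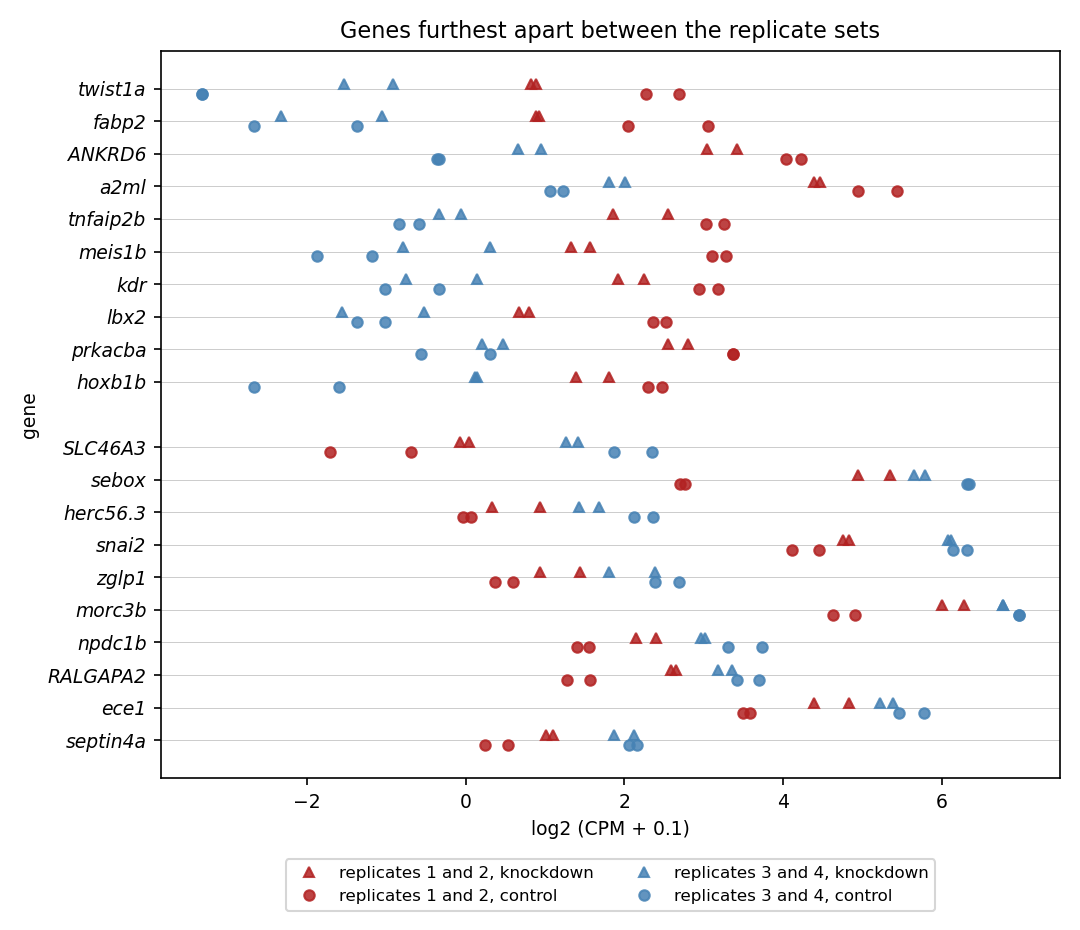
Levels of the 10 genes furthest above and the 10 furthest below in replicates 1 and 2, as log2(CPM + 0.1) on the horizontal axis. Each gene has 1 point per library, triangles for knockdown and circles for control, red for replicates 1 and 2 and blue for replicates 3 and 4. Red and blue points of the same shape do not overlap, and the circles lie further apart than the triangles for each of these genes.

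The genes furthest above belonged to several tissues. Twist1a, a mesoderm and neural crest transcription factor, was at 1.75 and 1.67 CPM in the knockdown and 4.72 and 6.32 CPM in the controls of replicates 1 and 2. In replicates 3 and 4 it was at 0.247 and 0.43 CPM in the knockdown and at 0 CPM in both controls. All 4 libraries of replicates 1 and 2 thus lay above all 4 of replicates 3 and 4, by 4.07 ± 0.68 (log2, SE). ANKRD6, which encodes an ankyrin-repeat protein of the Wnt pathway, was at 10.6 and 8.12 CPM in the knockdown and 18.6 and 16.3 CPM in the controls of replicates 1 and 2, against 1.83 and 1.48 CPM in the knockdown and 0.679 and 0.689 CPM in the controls of replicates 3 and 4, a difference of 3.43 ± 0.35. Kdr, a VEGF receptor of the vascular lineage, differed by 3.15 ± 0.32, and meis1b, a homeodomain partner of Hox proteins, by 3.18 ± 0.54. Fabp2, the intestinal fatty acid binding protein, differed by 4.02 ± 0.51, tnfaip2b by 3.28 ± 0.31, prkacba, a catalytic subunit of protein kinase A, by 2.97 ± 0.26, and lbx2, a homeobox gene, by 2.97 ± 0.39. Among all genes tested the median difference was 0.01.

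The yolk syncytial layer was the list with the largest share of genes above: 11 of its 27 tested genes were higher (40.7%, beside 3.99% of all genes) and 0 were lower. The list has 38 genes in the counts, and those not tested had too few reads. A gene can pass the read filter through the 4 libraries of 1 set alone, as serpina1 did. This holds for every list and for the share of all genes. The median difference of the yolk syncytial layer list was 0.61, with 0.61 in the knockdown and 0.52 in the controls. From 10 to 12 of its genes were higher without any 1 library. A2ml, a protease inhibitor of the macroglobulin family, was at 22.0 and 20.8 CPM in the knockdown and 30.7 and 43.2 CPM in the controls of replicates 1 and 2, against 3.902 and 3.39 CPM in the knockdown and 1.98 and 2.24 CPM in the controls of replicates 3 and 4. All 4 libraries of replicates 1 and 2 were higher, by 3.28 ± 0.28. Apobb.1, an apolipoprotein B gene, was at 38.6 and 34.4 CPM in the knockdown and 77.2 and 62.9 CPM in the controls of replicates 1 and 2, against 15.4 and 10.5 CPM in the knockdown and 11.5 and 6.77 CPM in the controls of replicates 3 and 4.

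Apobb.1 was thus higher in every library of replicates 1 and 2, by 2.1985 ± 0.29, and more so in controls. The apolipoprotein genes apoa1b, apoa1a and apoa2 differed by 1.90 ± 0.20, 1.56 ± 0.22 and 1.03 ± 0.15, the iron carrier transferrin (tfa) by 1.56 ± 0.11, and the fibronectin genes fn1b and fn1a by 1.60 ± 0.31 and 1.41 ± 0.29. The transcription factor genes gata4 and hnf4b differed by 2.06 ± 0.34 and 1.62 ± 0.12. Serpina1, a plasma protease inhibitor, had 169 reads over the libraries of replicates 1 and 2 and 3 reads over those of replicates 3 and 4. Summed over the list, the level was 11853 to 13057 CPM in replicates 1 and 2 and 9903 to 10778 CPM in replicates 3 and 4.

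Mxtx2, a homeobox gene that acts early to specify the yolk syncytial layer, ran against its list in the controls. It was at 5.97 and 6.24 CPM in the knockdown and 3.21 and 2.74 CPM in the controls of replicates 1 and 2, against 11.1 and 5.401 CPM in the knockdown and 16.9 and 15.3 CPM in the controls of replicates 3 and 4. The control libraries of the sets did not overlap, while the knockdown libraries did, so that mxtx2 (-1.39 ± 0.37) is not among the 209 genes. In bulk embryos, fewer cells of a type and less RNA per cell cannot be told apart.

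**Figure D2:**
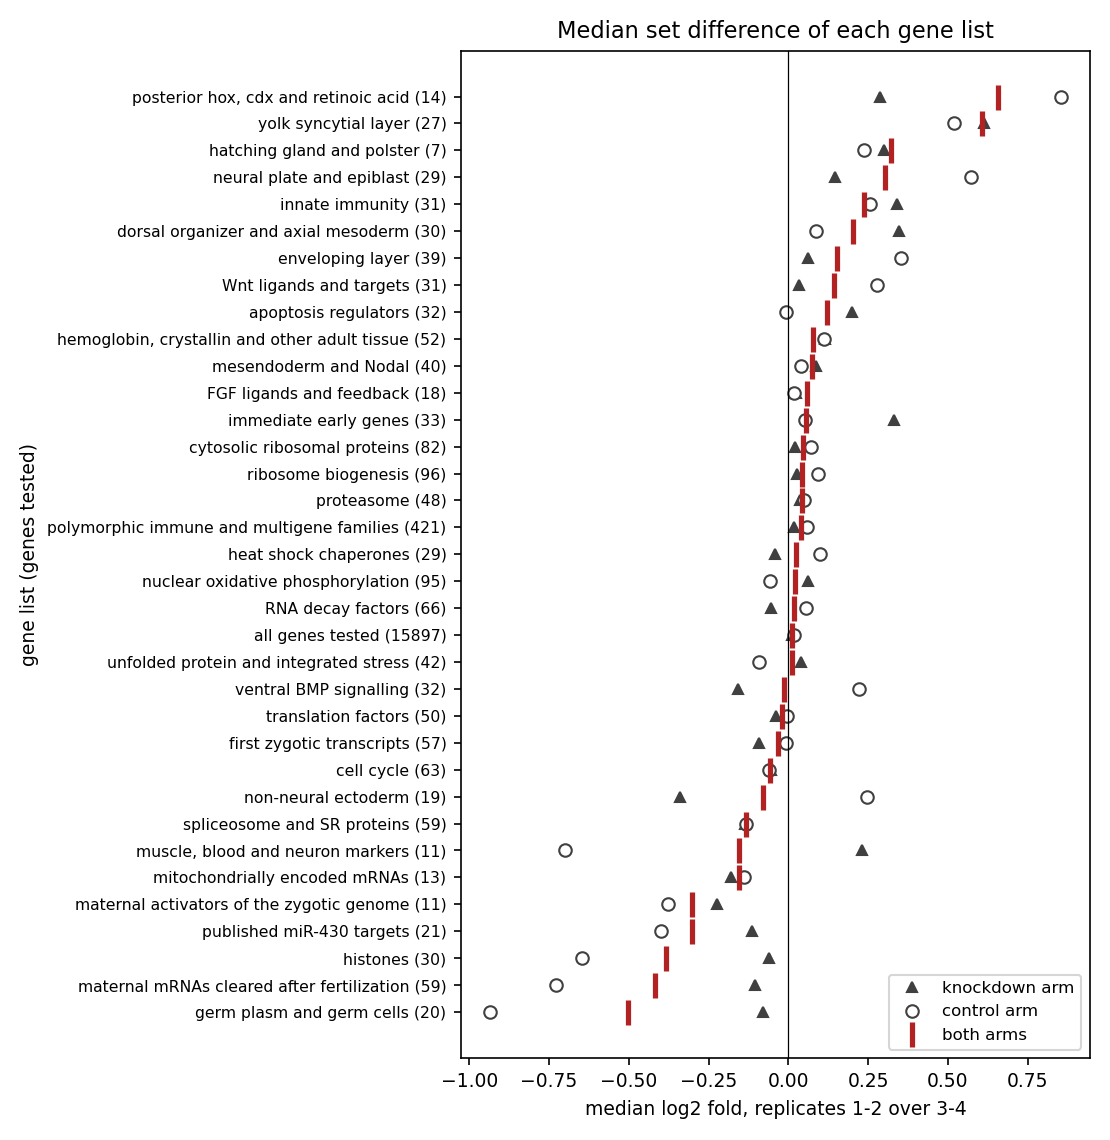
Median log2 fold change of replicates 1 and 2 over replicates 3 and 4 for each gene list with at least 7 genes tested, number of genes in parentheses. Red bars are both arms together, triangles the knockdown arm and open circles the control arm. The posterior and yolk syncytial layer lists stand highest at 0.66 and 0.61, and the germ plasm and maternal mRNA lists lowest at -0.50 and -0.42.

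The posterior hox, cdx and retinoic acid list had the highest median, 0.66 over the 14 tested of its 29 genes. By the rule 2 were higher (14.3%, beside 3.99% of all genes) and 0 lower. The median was 0.29 in the knockdown, below the 0.61 of the yolk syncytial layer list, and 0.855 in the controls. Hoxb1b, among the first hox genes to be expressed in the gastrula, was at 3.40 and 2.52 CPM in the knockdown and 5.43 and 4.82 CPM in the controls of replicates 1 and 2. In replicates 3 and 4 it was at 0.988 and 1.004 CPM in the knockdown and 0.057 and 0.23 CPM in the controls. The sets did not overlap, and hoxb1b differed by 2.78 ± 0.52. Dhrs3b, which encodes a reductase that limits retinoic acid, was at 111 and 101 CPM in the knockdown and 95.0 and 115 CPM in the controls of replicates 1 and 2, against 50.0 and 45.6 CPM in the knockdown and 44.7 and 41.8 CPM in the controls of replicates 3 and 4. It differed by about the same in both arms, 1.15 in the knockdown and 1.28 in the controls. Cdx1a overlapped between the sets in the knockdown and is described with the responses.

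Mesoderm genes went both ways. Of 40 tested genes of the mesendoderm and Nodal list, 5 were higher (12.5%, beside 3.99% of all genes) and 2 lower (5%, beside 1.31%). Tbx6, a factor of paraxial mesoderm, was at 11.8 and 8.16 CPM in the knockdown and 19.3 and 21.3 CPM in the controls of replicates 1 and 2, against 4.84 and 4.06 CPM in the knockdown and 1.64 and 2.98 CPM in the controls of replicates 3 and 4. The muscle determination gene myod1 was at only 0.172 to 1.795 CPM over the 8 libraries. Myf5, of the same kind, differed by 0.50 in the knockdown and 2.42 in the controls. Tbx6 (2.09 ± 0.36), myod1 (2.32 ± 0.34) and myf5 (1.38 ± 0.35) were thus higher in replicates 1 and 2. The early Nodal-responsive homeobox genes were lower there: mixl1 was at 79.2 and 109 CPM in the knockdown and 56.0 and 48.4 CPM in the controls of replicates 1 and 2, against 133 and 124 CPM in the knockdown and 215 and 188 CPM in the controls of replicates 3 and 4. Mixl1 differed by -1.19 ± 0.26. The Nodal ligand gene ndr1 differed by -1.16 ± 0.32.

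Sebox, another homeobox gene of early mesendoderm, stood out for its controls. It was at 30.5 and 40.5 CPM in the knockdown and 6.71 and 6.37 CPM in the controls of replicates 1 and 2, against 50.1 and 54.9 CPM in the knockdown and 79.2 and 80.8 CPM in the controls of replicates 3 and 4. The controls of replicates 1 and 2 were the lowest of the 8 libraries and those of replicates 3 and 4 the highest. Snai2, a zinc-finger repressor known from epithelial-mesenchymal transition, was also lower: 28.3 and 26.9 CPM in the knockdown and 21.8 and 17.1 CPM in the controls of replicates 1 and 2, against 67.2 and 68.9 CPM in the knockdown and 79.2 and 70.6 CPM in the controls of replicates 3 and 4. Its difference was -1.62 ± 0.13.

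In the dorsal organizer list, 4 of 30 genes were higher (13.3%, beside 3.99% of all genes) and 1, ndr1, was lower (3.33%, beside 1.31%). Shha, a Hedgehog ligand gene of the axial midline, differed by 1.31 ± 0.28, frzb, a secreted Wnt antagonist, by 1.16 ± 0.10, and six3b, a forebrain factor, by 1.01 ± 0.13. With DESeq2 size factors the organizer list had 2 genes higher by the rule. In the neural plate list 3 of 29 genes were higher (10.3%) and 0 lower, and with DESeq2 size factors 1 was higher. Nova2, a neuronal splicing regulator, was at 13.3 and 7.52 CPM in the knockdown and 27.3 and 15.7 CPM in the controls of replicates 1 and 2, against 7.41 and 6.74 CPM in the knockdown and 3.23 and 3.96 CPM in the controls of replicates 3 and 4. The knockdown libraries of the sets nearly met, while the controls lay far apart.

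Maternal and germ-line mRNAs lay below in replicates 1 and 2, mostly by less than 2-fold. Of 59 tested maternal mRNAs that are cleared after fertilization, 3 were lower by the rule (5.08%, beside 1.31% of all genes) and 1 was higher. Their median was -0.42, with -0.10 in the knockdown and -0.73 in the controls. Gdf3, the maternal partner of the Nodal ligands, was at 69.5 and 73.4 CPM in the knockdown and 42.1 and 51.1 CPM in the controls of replicates 1 and 2, against 105 and 105 CPM in the knockdown and 165 and 134 CPM in the controls of replicates 3 and 4. Every library of replicates 1 and 2 was lower, by -1.12 ± 0.20 in all.

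The other lower members were cth1, a CCCH zinc-finger gene, at -1.04 ± 0.25, and zp3d.2, an egg coat gene with near-identical copies whose counts are therefore uncertain, at -1.44 ± 0.38 and under 1 CPM in all 8 libraries. The member that was higher, hnf4b, is also in the yolk syncytial layer list. Without control replicate 1 or control replicate 3 the lower count was 1 gene, and without knockdown replicate 2 it was 10. The rule is easier to meet with a library left out, so the rise to 10 is partly built in. Summed over the list, the level was 13781 to 14574 CPM in replicates 1 and 2 and 14128 to 15928 CPM in replicates 3 and 4, so that the summed levels overlapped.

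Nanog, a maternal activator of the zygotic genome, was at 75.9 and 67.0 CPM in the knockdown and 41.0 and 51.5 CPM in the controls of replicates 1 and 2, against 98.2 and 110 CPM in the knockdown and 163 and 122 CPM in the controls of replicates 3 and 4. It was lower in every library of replicates 1 and 2, by -1.08 ± 0.20, and was the 1 of 11 activators that met the rule (9.09%, beside 1.31% of all genes). The germ plasm list, which holds piRNA-pathway and germ cell genes, had a median of -0.50 over 20 genes, with -0.08 in the knockdown and -0.94 in the controls. Its 1 gene below (5%, beside 1.31%) was tdrd5, a Tudor-domain gene of the piRNA pathway, at -1.02 ± 0.20. That gene did not meet the rule without any 1 of the 4 control libraries. Histone genes had a median of -0.38 over 30 genes, with -0.06 in the knockdown and -0.65 in the controls, and 1 gene was lower by the rule (3.33%, beside 1.31%). The first zygotic transcripts did not separate the sets as a list. Of 57 tested, 1 was higher (1.75%, beside 3.99% of all genes) and 0 were lower. Their median was -0.03, with -0.09 in the knockdown and -0.01 in the controls.

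Lists of signal and stress responses differed in their shares. Of 33 immediate early genes, 6 were higher and 0 lower (18.2%, beside 3.99%). The median of that list was 0.055, beside 0.012 over all genes. Its summed levels overlapped, at 1831 to 2007 CPM in replicates 1 and 2 and 1949 to 2229 CPM in replicates 3 and 4. Junba, an AP-1 subunit, was at 1.32 and 1.58 CPM in the knockdown and 0.992 and 2.12 CPM in the controls of replicates 1 and 2, against 0.296 and 0.335 CPM in the knockdown and 0.283 and 0.23 CPM in the controls of replicates 3 and 4. Junba differed by 2.36 ± 0.36, and fosl1a and fosab, which encode its Fos partners, by 1.54 ± 0.18 and 1.52 ± 0.17. Of 31 innate immunity genes, 4 were higher and 0 lower (12.9%, beside 3.99%): irf1b at 1.87 ± 0.26, socs1a at 1.33 ± 0.15, relb at 1.06 ± 0.19 and il6 at 1.03 ± 0.24. The median difference of that list was 0.34 in the knockdown and 0.26 in the controls. Its summed level, in which abundant members weigh most, went opposite ways in the arms. The level was 437 and 474 CPM in the knockdown and 438 and 418 CPM in the controls of replicates 1 and 2. In replicates 3 and 4 it was 387 and 365 CPM in the knockdown and 539 and 504 CPM in the controls. Socs1a, a feedback inhibitor of cytokine signalling, differed alike in both arms, by 1.34 in the knockdown and 1.31 in the controls. Of 42 genes of the unfolded protein and integrated stress response 3 were higher (7.14%), and of 29 heat shock chaperones 0 were, with 0 lower in both lists.

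Housekeeping lists lay near the median of all genes. None of 82 cytosolic ribosomal protein genes, 96 ribosome biogenesis genes, 59 spliceosome genes or 48 proteasome genes met the rule, and their medians were between 0.042 and 0.045, apart from -0.13 for the spliceosome. Transcripts of the 13 mitochondrial protein genes made up 1.60% and 1.79% of the gene reads in the knockdown and 1.503% and 1.74% in the controls of replicates 1 and 2, against 2.18% and 1.85% in the knockdown and 1.66% and 1.85% in the controls of replicates 3 and 4. Malat1, a nuclear noncoding RNA, was at 693 and 1013 CPM in the knockdown and 661 and 1148 CPM in the controls of replicates 1 and 2, against 1059 and 614 CPM in the knockdown and 641 and 590 CPM in the controls of replicates 3 and 4. Its levels overlapped between the sets in the knockdown.

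Of 32520 genes, a few were present in 1 set and nearly absent from the other. They were picked by having at most 3 reads over 1 set and at least 10 in each library of the other, so a large fold is built in. Tnip2, which encodes a partner of the NF-kappaB inhibitor A20, had 103 reads over replicates 1 and 2 and 0 over replicates 3 and 4, and was thus at least 32.5-fold higher, against a floor of 3 reads over the set (counting error only). Of the 103 reads, 49 were in knockdown replicate 2. Reads of tnip2 also appeared in 13 of the other 29 libraries, at no more than 0.75 CPM. Among genes of large immune and zinc-finger families, whose copies make counts uncertain, 13 of 421 were higher and 5 lower (3.09% and 1.19%), close to the shares of all genes.

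**Figure D3:**
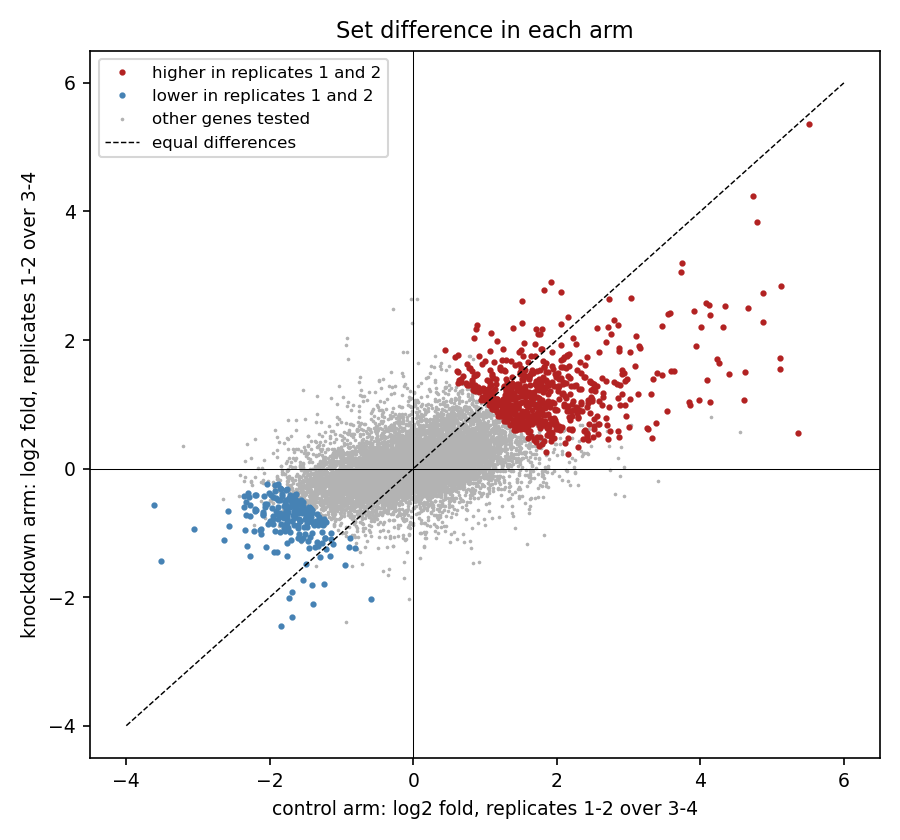
Log2 fold change of replicates 1 and 2 over replicates 3 and 4, in the control arm (horizontal) and the knockdown arm (vertical), 1 point per gene. Red marks the genes higher and blue the genes lower by the rule, grey the other genes, and the dashed line equal differences. Most coloured points lie nearer the horizontal axis than the dashed line does; 3 genes with no read in a set of 1 arm are not drawn.

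The sets lay further apart in the controls than in the knockdown. The median size of the set difference over all genes was 0.20 in the knockdown and 0.39 in the controls (log2). In the fit of all 8 libraries, 528 genes were at least 2-fold higher without overlap within the knockdown arm (3.32%) and 101 lower (0.635%). In the control arm of that fit 1286 were higher (8.09%) and 1212 lower (7.62%). Of the 634 genes higher in both arms, 521 (82.2%) differed more in the controls, and of the 209 lower ones 192 (91.9%), beside 72.1% of all genes. In a principal component analysis the first component held 53.3% of the variance and ran from controls 1 and 2 over knockdown 1 and 2 and then knockdown 3 and 4 to controls 4 and 3. The second component held 11.7% and separated the arms.

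Knockdown responses differed with the set in which they were measured. In an edgeR quasi-likelihood test with set as a covariate, 19 genes rose with the knockdown (0.12%) and 50 fell (0.315%) at a Benjamini-Hochberg adjusted p under 0.05, whereas without the covariate 1 rose and 7 fell. In replicates 1 and 2 alone 885 genes rose (5.57%) and 805 fell (5.06%), and in replicates 3 and 4 alone 92 rose (0.579%) and 154 fell (0.969%). With the replicate number as a block, which pairs the arms by number, 4 genes rose and 17 fell over both sets, and 259 rose and 353 fell in replicates 3 and 4. These within-set tests rest on 2 libraries per arm.

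Each of these counts moved by more than 1.5 times when 1 library was left out. Over both sets there were then 5 to 21 genes that rose and 17 to 39 that fell, and only without control replicate 1 or knockdown replicate 3 did both counts stay within 1.5 times. Within replicates 1 and 2 there were 278 and 224 without control replicate 1 and 246 and 154 without knockdown replicate 2. Within replicates 3 and 4 there were 5 and 30 without control replicate 3, 25 and 64 without control replicate 4, 25 and 56 without knockdown replicate 3, and 37 and 43 without knockdown replicate 4, while 148 to 160 rose without any 1 library of replicates 1 and 2.

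The response itself differed between the sets for 743 genes in the positive direction (4.67%) and 605 in the negative (3.81%), by the interaction of arm and set. The sets were noticed because libraries of both arms deviated together, so this test is not free of the choice of sets. The counts were 171 and 116 without control replicate 3, 350 and 310 without control replicate 1, 455 and 333 without control replicate 4, 307 and 252 without knockdown replicate 2 and 351 and 226 without knockdown replicate 3. Among the 634 genes higher in replicates 1 and 2, 2 had a positive and 111 a negative interaction. Among the 209 lower ones 60 had a positive and 0 a negative interaction, beside 4.67% and 3.81% of all genes. The interaction is the set difference in the knockdown minus that in the controls. These directions thus follow from the larger control differences of genes chosen by their set difference, and are no separate result.

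Sebox, whose levels are given above, rose with the knockdown in replicates 1 and 2 by 2.44 ± 0.15 (edgeR, adjusted p = 1.25e-07) and fell in replicates 3 and 4 by 0.61 ± 0.13 (adjusted p = 0.0217). The responses differed by 3.05 ± 0.20 (adjusted p = 2.76e-07). Sebox is among the 209 genes lower in replicates 1 and 2, so its interaction is no separate result. Cdx1a, a caudal-type homeobox gene of the posterior embryo, was at 11.6 and 8.03 CPM in the knockdown and 45.5 and 45.8 CPM in the controls of replicates 1 and 2, against 13.1 and 12.7 CPM in the knockdown and 5.32 and 7.63 CPM in the controls of replicates 3 and 4. The controls of the sets were at opposite ends, with all 4 knockdown libraries between them. It fell by 2.23 ± 0.18 in replicates 1 and 2 (adjusted p = 3.48e-06) and rose by 0.99 ± 0.19 in replicates 3 and 4 (adjusted p = 0.014), and the interaction was -3.22 ± 0.26 (adjusted p = 3.07e-06).

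Cd34, a marker of vascular and blood progenitors, had an interaction of -3.99 ± 0.57 (edgeR adjusted p = 0.000805), meis1b one of -3.39 ± 0.59 (adjusted p = 0.00292) and hoxb1b one of -3.55 ± 0.62 (adjusted p = 0.00291). Twist1a also passed, but it had no read in the controls of replicates 3 and 4 and is given no fold here. Meis1b, hoxb1b and twist1a were called by their set difference, so their interactions are no separate result either. Cd34 and cdx1a were at least 2-fold apart without overlap of the sets within the controls alone. The interactions of cd34 and cdx1a are thus not free of the choice of sets. Isg15, an interferon-stimulated gene, was at 66.2 and 76.7 CPM in the knockdown and 63.3 and 56.4 CPM in the controls of replicates 1 and 2, against 52.4 and 48.3 CPM in the knockdown and 174 and 158 CPM in the controls of replicates 3 and 4. The 2 controls of replicates 3 and 4 stood above the other 6 libraries, so the interaction of isg15 is also tied to a set gap in the controls. Isg15 fell with the knockdown in replicates 3 and 4 by 1.72 ± 0.11 (adjusted p = 3.07e-07), had a response of 0.26 ± 0.11 in replicates 1 and 2 (adjusted p = 0.154), and had an interaction of 1.98 ± 0.16 (adjusted p = 3.07e-06).

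Some genes responded in the same direction in both sets. Limd2, which encodes a LIM-domain protein, was at 4.49 and 5.34 CPM in the knockdown and 12.3 and 14.7 CPM in the controls of replicates 1 and 2, against 5.09 and 3.34 CPM in the knockdown and 18.2 and 14.2 CPM in the controls of replicates 3 and 4. It was lower in all 4 knockdown libraries than in any control, by -1.69 ± 0.18 (edgeR, adjusted p = 0.000761), and its set difference was -0.04 ± 0.17. Ostf1 fell by 1.33 ± 0.16 (adjusted p = 0.00198) and spint1b, a protease inhibitor of epithelia, by 1.32 ± 0.14 (adjusted p = 0.000965), while nnt, a mitochondrial transhydrogenase, rose by 0.87 ± 0.08 (adjusted p = 0.000368). The size of the response differed between the sets for ostf1, at -0.91 in replicates 1 and 2 and -1.74 in replicates 3 and 4 (interaction adjusted p = 0.0172), and for spint1b, at -0.98 in replicates 1 and 2 and -1.64 in replicates 3 and 4 (adjusted p = 0.0487). For limd2 and nnt the interaction did not pass (adjusted p = 0.332 and 0.288). Without set as a covariate ostf1, spint1b and nnt did not pass (adjusted p = 0.183, 0.245 and 0.468).

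Libraries of Cas7-11 with 50 pg of GFP, 3 in the knockdown and 3 in the control arm, took no part in choosing the genes. Over both arms, 0 of 16359 genes differed between replicates 1 and 2 and replicate 3 in edgeR (0%), with 2176 at an unadjusted p under 0.05, and in DESeq2 66 were higher and 44 lower. The arms went different ways. In the knockdown 17 genes were higher and 17 lower in replicates 1 and 2 (0.104% each), against 965 higher (5.9%) and 901 lower (5.51%) in the controls, and the difference between the arms passed for 665 genes (4.07%). Replicate 3 is 1 library in each arm with no spread of its own, and the fit takes it to vary like the others, so that the counts within an arm say how far that 1 library stood from the other 2. Without control replicate 3 at 50 pg, 17 genes were higher and 16 lower, and without knockdown replicate 3, 981 and 862.

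In the genes of the 10 pg sets, control replicate 3 at 50 pg stood apart from control replicates 1 and 2 in the direction of 10 pg replicates 3 and 4. Of 612 measured genes that were higher at 10 pg, 270 had a positive difference in the 50 pg knockdown and 563 in the 50 pg controls. Among the 15746 genes measured at both doses, 8282 and 7867 did. Of 205 measured genes that were lower at 10 pg, 51 had a negative difference in the 50 pg knockdown and 195 in the 50 pg controls. Among the 15746 genes, 7464 and 7879 did. Medians were -0.08 in the knockdown and 1.005 in the controls for the 612 genes, and 0.32 in the knockdown and -0.88 in the controls for the 205.

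**Figure D4:**
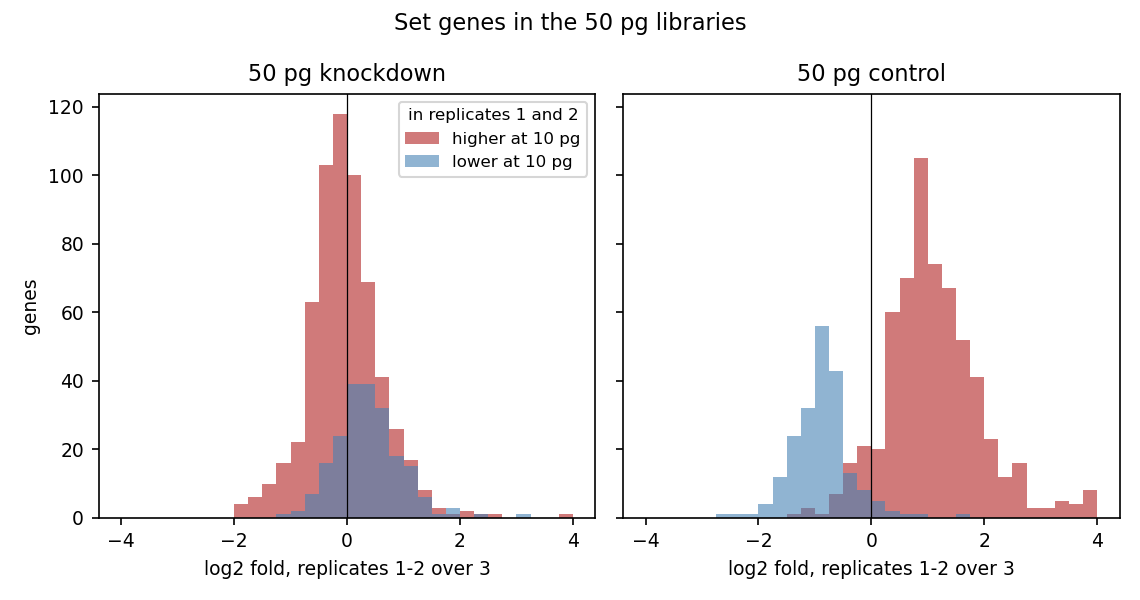
Log2 fold change of replicates 1 and 2 over replicate 3 of Cas7-11 with 50 pg of GFP, in knockdown (left) and control (right), as numbers of genes per bin of 0.25. Red are the genes higher and blue the genes lower in replicates 1 and 2 at 10 pg, and values beyond 4 are drawn at 4. In the controls the red and blue medians lie at 1.005 and -0.88, and in the knockdown at -0.08 and 0.32.

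At 50 pg a2ml was at 14.5, 18.9 and 11.9 CPM in knockdown replicates 1, 2 and 3, and at 16.7, 12.4 and 2.17 CPM in control replicates 1, 2 and 3. Control replicate 3 was the lowest of the 6 libraries, and in the controls replicates 1 and 2 were higher by 2.74 (log2). These genes were picked with their values known and are given without a test. Snai2 was at 37.001, 35.4 and 36.8 CPM in the knockdown and 34.6, 26.3 and 83.3 CPM in the controls, a difference of -1.45 in the controls. Hoxb1b was at 0.67, 1.36 and 3.11 CPM in the knockdown and 3.996, 5.08 and 0.444 CPM in the controls, a difference of -1.60 in the knockdown and 3.33 in the controls. Replicate 3 was thus the lowest control and the highest knockdown library for hoxb1b. Nanog was at 103, 79.1 and 56.0 CPM in the knockdown and 66.7, 63.6 and 173 CPM in the controls, a difference of -1.40 in the controls.

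**Figure D5:**
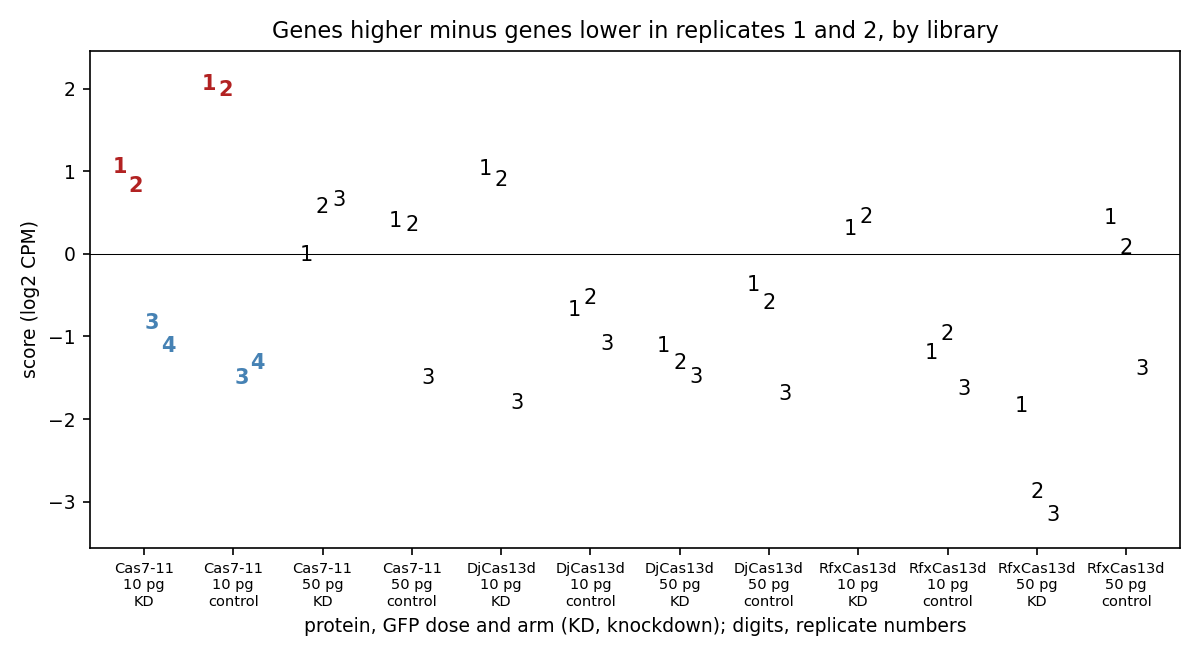
Score of each of the 37 libraries, the mean log2 CPM of the genes higher minus that of the genes lower in replicates 1 and 2 of Cas7-11 at 10 pg. Columns are groups, with knockdown left of its control, and digits are replicate numbers, red and blue for the libraries that chose the genes. Replicate 3 is the lowest of its group in 8 of the 9 other groups with 3 libraries.

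As a description of all libraries, the mean log2 CPM of the 634 genes minus that of the 209 was taken as a score. It was 1.06 and 0.82 in the knockdown and 2.06 and 1.99 in the controls of replicates 1 and 2, against -0.84 and -1.12 in the knockdown and -1.51 and -1.32 in the controls of replicates 3 and 4. At 50 pg of GFP with Cas7-11 it was -0.02, 0.56 and 0.65 in knockdown replicates 1, 2 and 3 and 0.39, 0.35 and -1.50 in control replicates 1, 2 and 3. Over the other 29 libraries it ran from -3.16 to 1.03, with 2 of them within or above the range of replicates 1 and 2, 13 between the sets, 8 within the range of replicates 3 and 4, and 6 below it. Replicate 3 had the lowest score in 8 of the 9 other groups with 3 libraries, the exception being the Cas7-11 knockdown at 50 pg.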

How the data were processed

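For each library the authors deposited a table of raw counts per gene and a table of TPM values, made on danRer11, per the submitters' processing notes. The aligner, counter and strandedness were not given in the sources used here. Per the labels' protocols, RNA was extracted with TRIzol for directional libraries. The deposited counts cover 32520 genes and omit GFP with Cas7-11, so GFP was read from the deposited TPM. Summary entries (19.7% to 22.6% of reads in the 8 libraries) were left out of tests.

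Counts were fitted with edgeR 4.0.16 in R 4.3.3 (filterByExpr by arm, TMM, robust quasi-likelihood), with set and arm as terms, and with their interaction for responses. DESeq2 1.42.0 and limma 3.58.1 gave alternatives. The fits were checked on simulated counts. Named genes are the 10 largest called in each direction with mean log2 CPM of at least 1 and a gene name, up to 4 called members of a list, and 5 for other contrasts; the other list members, mxtx2 and the genes described at 50 pg were picked after their values were seen. Members and lists were chosen with earlier results of these data known. P-values measure the spread between these libraries, which may be technical.

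Deviations from arm means of same-numbered libraries correlated across genes at 0.50, 0.35, 0.28 and 0.42, all above 0.1. Runs paired by number are therefore given as alternatives, while the main fits hold set and arm and no pairs. Control 2 with knockdown 1 (0.43) and control 3 with knockdown 4 (0.44) were as alike. Such correlations also chose the split, so they cannot show pairing beyond the sets. At 50 pg deviations of same-numbered libraries correlated at -0.22, 0.18 and -0.04 and do not pair.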

Additional observations from a re-analysis of the deposited data

Results flagged for a closer look

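The knockdown response differed between replicates 1 and 2 and replicates 3 and 4, by the interaction of arm and set, for 743 genes in the positive and 605 in the negative direction. The largest positive differences of the response were those of sebox at 3.05, il34 at 2.68, irgf4 at 2.62, slc26a4 at 2.40 and spo11 at 2.32 (log2). The largest negative ones, apart from twist1a, were those of cd34 at -3.99, hoxb1b at -3.55, meis1b at -3.39 and cdx1a at -3.22. Sebox, hoxb1b and meis1b were also called by their set difference, so their values here are no separate result. Cd34, cdx1a, slc26a4 and spo11 were at least 2-fold apart without overlap of the sets within the controls alone, and il34 and irgf4 within the knockdown alone. Their interactions come from the counts that chose the sets and are not free of that choice either. Il34, irgf4 and spo11 did not pass without control replicate 3 or without knockdown replicate 2, and spo11 also not without knockdown replicate 3. At 50 pg the difference of replicates 1 and 2 over replicate 3 was unlike in the arms for 665 genes.

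Single libraries stood apart from the other 3 of their arm in 6 of 214 sets of 4 values examined (2.80%). Most of these sets are of genes picked because 2 libraries of an arm lay apart from the other 2. The share can therefore not be set against a rate by chance. The gap over the range was 0.898 for the share of ambiguous reads in the knockdown and 0.843 in the controls, replicate 2 being highest in both. It was 0.886 for shha and 0.881 for nova2, both with knockdown replicate 1 highest, 0.923 for the egg coat gene zp3b with knockdown replicate 4 highest, and 0.873 for malat1 with control replicate 2 highest. Their causes were not tested.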

How the results depend on the processing

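In the genes named by rule, no difference changed sign under any alternative run. Mxtx2 and the other list members picked after their values were seen are not among those genes. Which direction had more knockdown calls did change. Of set differences of 74 named genes, 1099 alternatives moved the value by less than the replicate SD and 191 by more. The 1099 include the runs at 1.5-fold and 4-fold, which keep the fold changes of the main fit and so cannot move them. The counts of genes higher and lower between the sets were 999 and 473 with every gene that had a read, 1339 and 860 at 1.5-fold, 82 and 2 at 4-fold, 316 and 41 from the knockdown alone, and 269 and 40 from limma on log2(TPM + 1), which shrinks low values. From the controls alone 848 were lower. Leaving out 1 library gave 584 to 876 higher and 178 to 536 lower. Runs on 1 arm or with 1 library left out ask for no overlap among fewer libraries, which makes the rule easier to meet.

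For knockdown against control the counts that rose and fell were 250 and 222 with every gene that had a read, 1 and 7 without set, 90 and 160 with DESeq2, and 5 to 21 and 17 to 39 with 1 library left out. With the replicate block, which pairs the arms by number, they were 4 and 17, and within replicates 3 and 4 they were 259 and 353; the pairing moved no other count by over 1.5 times. Within replicates 3 and 4 they were 392 and 342 with every gene that had a read, 191 and 255 with DESeq2 and 5 to 160 and 30 to 227 with 1 library left out, and within replicates 1 and 2, 246 to 901 and 154 to 854. The interaction gave 919 negative genes with every gene that had a read, and 171 to 840 positive and 116 to 774 negative with 1 library left out. At 50 pg the counts were 5 and 2 with every gene that had a read, 66 and 44 with DESeq2, 965 and 901 in controls, 17 and 17 in the knockdown, 0 to 981 and 0 to 862 with 1 library left out, and 0 and 0 with the replicate block. The GFP differences were -0.52 to -0.36 between sets and -2.45 to -2.29 between arms with 1 library left out. Causes were not tested.

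The yolk syncytial layer median was 0.39 to 0.68 over the alternatives. Medians near 0, such as those of the immediate early and first zygotic lists, changed sign under some of them and are given no direction. Twist1a, fabp2, lbx2, gata4, myod1 and the immune genes irf1b, socs1a, relb and il6 rest on a few CPM. The SE of the set difference was 0.68 for twist1a, 0.51 for fabp2 and 0.39 for lbx2. It was 0.34 for gata4 and myod1, and 0.15 to 0.26 for those immune genes. Sebox, at higher levels, had an SE of 0.67. With 2 libraries per arm and set, a p that misses the threshold does not show that responses were alike.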
